A study of Mus musculus with 20 samples.

Results

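The genes described here are 35 targets and regulators of the transcription factor NRF2 together with the antioxidant enzymes that work beside them, in cultured mouse macrophages. They were chosen by name, as genes of glutathione synthesis, of the thioredoxin system and of NADPH supply and as other known NRF2 targets, leaving out the glutathione transferases. Of the 46318 genes in the count files, 13307 had enough reads to be tested, and all 35 genes were among them. Macrophages grown from the bone marrow of female C57BL/6 mice, whose age is not given in the sources used here, with a recombinant growth factor were treated for 24 h in 4 ways. The DMSO group received vehicle, the DSHN group 50 µM DSHN, described in the labels as an agonist of the nuclear receptor NR0B2, and the GW3965 group 1 µM GW3965, an agonist of the liver X receptors (LXR). The fourth group, labelled DSHNplusGW and called the combination below, received both compounds. Each group had 5 replicate libraries, and the design asks how NR0B2 and LXR agonists, alone and together, change macrophage transcripts. The labels do not say whether replicates came from separate mice, so the p-values measure the spread between these libraries, which may be technical in part.

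NRF2, encoded by Nfe2l2, is held low in resting cells because KEAP1 binds it and hands it to a ubiquitin ligase. Oxidants and electrophiles modify cysteines of KEAP1, NRF2 then accumulates, pairs with a small MAF protein and binds antioxidant response elements near genes for glutathione synthesis, thioredoxin recycling, NADPH supply, haem breakdown and detoxification. In macrophages, which make superoxide and hydrogen peroxide as part of their defence function, these enzymes set how much oxidant persists, and NADPH is used both by the oxidase that makes superoxide and by the reductases that remove peroxides.

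Libraries held 16855029 to 23796561 counts, and each of the 35 genes had between 121 and 66200 counts in every library. All 8 macrophage markers were expressed, with a summed level of 15970 to 19200 CPM (a gene's counts relative to the library total, scaled by the trimmed mean of M values) over the 20 libraries. Summed markers reached at most 1.351 CPM for neutrophils, 0.7087 CPM for T and NK cells, 8.107 CPM for B cells, 1.767 CPM for dendritic cells, 4.59 CPM for mast cells with Fcer1a at 0, and 0.2904 CPM for erythroid cells with Hba-a1 and Hbb-bs at 0. Of the fibroblast markers, summing to 1737 to 2997 CPM, almost all reads were from Col1a1 and Col1a2. Pdgfra was at 3.275 to 6.01 CPM, while Dcn stayed at or under 0.6306 CPM and Lum at or under 0.1802 CPM. The fibroblast sum was 1737 to 2109 CPM in the combination, 2046 to 2596 in DMSO, 2178 to 2771 with DSHN and 2306 to 2997 with GW3965. Whether fibroblasts were among the cells was not tested. In the 5 combination libraries, log2 CPM less the gene's mean over the 20 libraries fell with exon length. The slope was −0.124 to −0.0943 per doubling of length, against 0.00566 to 0.063 in the other 15 libraries. Because these slopes are relative to that mean, those of the other 15 in part mirror the combination. Since the median exon length of the 35 genes was 2338 bases against 3758 bases over all tested genes, and 26 of the 35 lay under that median, the main comparisons with the combination are given beside a fit that removes a smooth length trend from every library.

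To show what the binding element looks like in front of these genes, promoter windows of 300 bases, from 250 bases before to 50 bases after each annotated start, were searched on both strands for the core of the antioxidant response element, TGACNNNGC or its reverse complement GCNNNGTCA. Windows came from RefSeq on build GRCm38.p6, and 30 of the 35 genes had one. The core was present for 12 of those 30 genes (40%), against 17% of the 10332 tested genes with a window and 14% of 27025 genes in the whole table. Those 12 were Nfe2l2, Blvra, Srxn1, Gclm, Prdx1, Pgd, Me1, Txnrd1, Mafg, Abcc4, Sod1 and G6pdx. A match describes the letters in the window, not a binding site, and a window without one says nothing about the factor. Shown are the stretches around the core for the gene of NRF2 itself and for 4 genes that return below, with the core in capitals and the sequence read on the gene's strand. Windows for Nfe2l2 (chr2:75704871-75704913, minus strand, core at −240 to −232 from the start), Gclm (chr3:122245399-122245455, plus strand, core at −134 to −126), Prdx1 (chr4:116685442-116685498, plus strand, core at −133 to −125), Txnrd1 (chr10:82859090-82859146, plus strand, core at −92 to −84) and G6pdx (chrX:74428905-74428961, minus strand, core at −57 to −49) read as follows.
Nfe2l2: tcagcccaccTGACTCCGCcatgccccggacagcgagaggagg
Gclm: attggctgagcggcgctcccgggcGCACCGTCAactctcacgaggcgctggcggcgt
Prdx1: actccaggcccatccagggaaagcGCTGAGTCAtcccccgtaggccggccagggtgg
Txnrd1: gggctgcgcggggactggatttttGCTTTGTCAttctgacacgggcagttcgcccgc
G6pdx: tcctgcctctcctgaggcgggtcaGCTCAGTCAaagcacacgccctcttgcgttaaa

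In the vehicle libraries the 35 genes spanned a wide range of expression per exon length. RPKM values, the CPM per kilobase of exon, ran from 1.40 ± 0.193 for Slc7a11, the cystine importer, to 1560.0 ± 35.2 (SD, n = 5) for Prdx1, a cytosolic peroxiredoxin, with a median of 73.5. Every ± in the text is the SD of 5 libraries. Hmox1, which opens the haem ring, followed at 465 ± 71.0 RPKM, then Taldo1 of the pentose phosphate pathway at 417 ± 12.5 and the glutathione peroxidase Gpx1 at 378 ± 23.7 RPKM. Hmox1 and Taldo1 differed by less than the spread of Hmox1 between libraries, and Taldo1 and Gpx1 by more than their own. Classical NRF2 targets were not uniformly high: Nqo1, the quinone reductase, stood at 8.003 ± 0.613 RPKM and Gclm, the regulatory subunit of the enzyme for the first step of glutathione synthesis, at 112 ± 3.04.

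DSHN alone raised most of these genes, by small amounts. Against DMSO, 22 of the 35 were higher, 3 were lower and 10 did not pass the test (edgeR quasi-likelihood, adjusted p under 0.05), where 14.1% of all tested genes were called higher and 14.8% lower. Their median log2 fold change was 0.178, against 0.00185 over all tested genes, and 3 of the 35 changed by more than 1.5-fold. In 20 genes every DSHN library lay above every DMSO library and in 3 every one lay below, against 9% and 9.61% of tested genes. By role, the called genes included 2 of 4 regulators, all higher, 3 of 6 glutathione genes (2 higher, 1 lower), 5 of 6 thioredoxin and peroxiredoxin genes and all 5 NADPH genes, each higher. They also included 3 of 5 superoxide and peroxide genes (2 higher, 1 lower), 2 of 3 haem genes, both higher, and 5 of 6 detoxification and export genes (4 higher, 1 lower). GW3965 alone gave a mixed picture: 16 higher, 9 lower and 10 not called, where 23.6% of tested genes were called higher and 23% lower, 46.5% in all. The median log2 fold change was 0.0558 against 0.00802 over all tested genes, a small offset, and 13 genes lay wholly above and 6 wholly below DMSO, against 16.6% and 15.5% of tested genes. With a bulk measurement, fewer cells of a type and less RNA per cell cannot be told apart.

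DSHN given on top of GW3965 raised 26 of the 35 genes and lowered 5, with 4 not called, where 28.3% of tested genes were called higher and 29.5% lower, 57.8% in all. The median log2 fold change was 0.255 against 0.0169 over all tested genes. With the length correction the count was 19 higher and 4 lower, against 23.8% and 23.5% of tested genes (47.3% in all), with a median of 0.145. In 22 genes the combination libraries lay wholly above the GW3965 libraries and in 4 wholly below, against 19.8% and 22.6% of tested genes. Against DMSO, the combination was higher for 25 genes and lower for 4, where 31.9% and 32.9% of tested genes were called (64.8% in all), and 27 and 6 with the length correction, where 30.2% and 28.2% were (58.4% in all). Compared with DSHN alone it was higher for 20 and lower for 5, where 28.6% and 29.5% were called (58.1% in all), and 14 and 8 with the length correction, where 23.5% and 22.9% were. DSHN against DMSO and the combination against GW3965 use different libraries. The other comparisons share libraries with these, so their values are only set side by side.

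**Figure D1:**
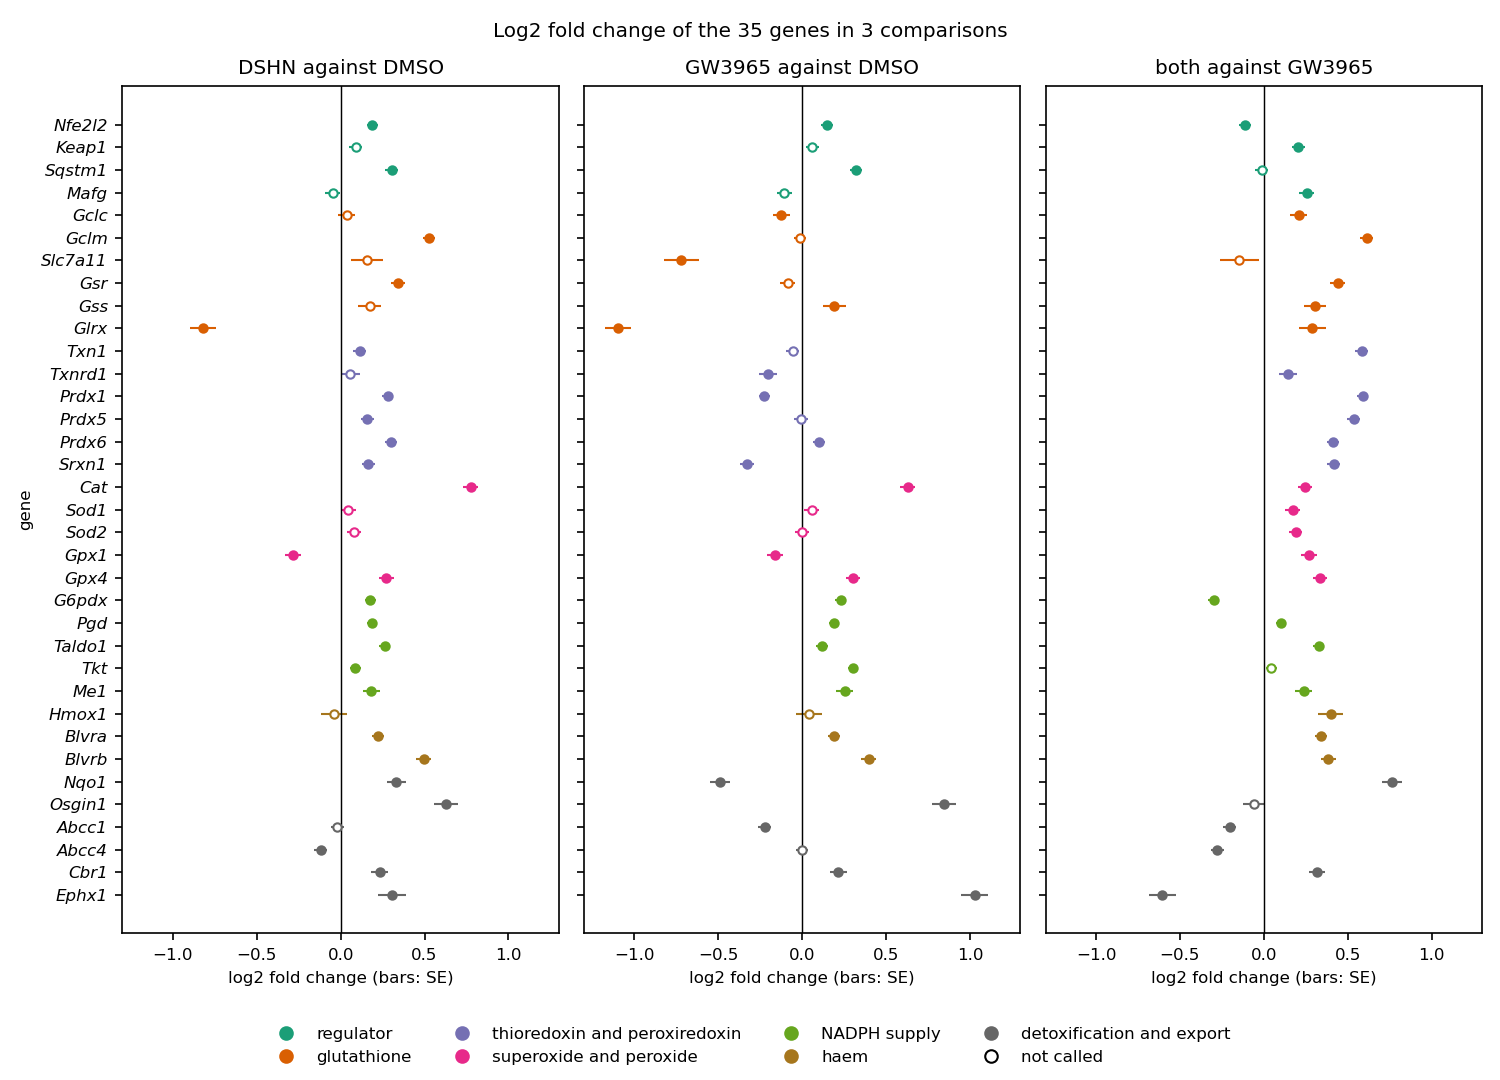
Log2 fold change (points, bars show the standard error) of each of the 35 genes, coloured by role, in 3 comparisons of 5 against 5 libraries, with open circles for genes that did not pass the test. With DSHN, 22 points are called to the right of 0 and 3 to the left; with GW3965 the points fall on both sides, 16 and 9; when DSHN was added to GW3965, 26 lie to the right and 5 to the left.

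Among the regulators, the transcript of NRF2 itself rose slightly with either compound alone and was not called with both. Nfe2l2 (chr2:75505857-75535007 on GRCm39, minus strand) was at 286, 288, 285, 272 and 271 CPM in the 5 DMSO libraries and at 302, 311, 329.6, 329 and 328 CPM with DSHN. The same transcript was at 327, 312, 318, 299 and 297 CPM with GW3965 and at 296, 298, 286, 274 and 283 CPM in the combination. Every DSHN and every GW3965 library stood above every DMSO library, whereas the combination overlapped with DMSO. The log2 fold change was 0.19 (SE 0.035, adjusted p = 0.00017) for DSHN, 0.15 (SE 0.035, adjusted p = 0.0011) for GW3965 and 0.035 (SE 0.035, adjusted p = 0.386) for the combination against DMSO. The combination was lower than GW3965 alone, at −0.11 (SE 0.035, adjusted p = 0.00811), a call that was lost with the length correction (−0.079, adjusted p = 0.0574) and with total counts as scaling (adjusted p = 0.122). With that correction the combination was called higher than DMSO, at 0.088 (adjusted p = 0.0287). Against DSHN alone the combination was lower without overlap, at −0.15 (SE 0.035, adjusted p = 0.000479). That call was kept with the length correction (−0.115, adjusted p = 0.00655).

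Keap1 (chr9:21141026-21150628, minus strand), the adaptor that marks NRF2 for destruction, moved in the combination. It was at 68.2, 68.2, 70.4, 72.4 and 69.9 CPM in DMSO, 78.0, 77.8, 74.0, 72.9 and 68.8 CPM with DSHN, 69.9, 69.2, 73.0, 74.5 and 77.2 CPM with GW3965 and 82.6, 81.5, 88.4, 82.7 and 84.2 CPM with both. All 5 combination libraries lay above the other 15, while the 3 remaining groups overlapped. The combination exceeded GW3965 by 0.20 (SE 0.039, adjusted p = 6.71e-05) and DMSO by 0.26 (SE 0.039, adjusted p = 1.42e-06) on the log2 scale, or 0.28 and 0.36 with the length correction. DSHN alone gave 0.091 with an adjusted p of 0.0832, which passed without DSHN replicate 5 (adjusted p = 0.0339) and with the length correction (adjusted p = 0.0482). Sqstm1, the autophagy receptor that competes with NRF2 for KEAP1, rose from 531 ± 15.9 CPM (SD, n = 5) to 656 ± 19.5 with DSHN, 663 ± 35.8 with GW3965 and 657 ± 33.6 in the combination, log2 fold changes against DMSO of 0.31, 0.32 and 0.31. With the length correction the combination value for Sqstm1 was 0.48, and the combination was then called above GW3965 (0.14, adjusted p = 0.00297) and above DSHN (0.16, adjusted p = 0.000939), where the uncorrected values were −0.012 and 0.0025. Mafg, a small MAF partner of NRF2, was higher in the combination than in GW3965 (0.26, SE 0.045, adjusted p = 2.73e-05), with 0.51 after the length correction. Either compound alone gave no call for Mafg, although GW3965 passed as a decrease without DMSO replicate 2 (adjusted p = 0.00912) or without GW3965 replicate 4 (adjusted p = 0.00835), and under other scalings (0.00755 with total counts, 0.048 with DESeq2 size factors).

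The 6 glutathione genes did not move as a block: 2 rose and 1 fell with DSHN, 1 rose and 3 fell with GW3965, and 5 rose when DSHN was added to GW3965 (3 with the length correction). Over all tested genes, 14.1% were called higher and 14.8% lower with DSHN, and 23.6% and 23% with GW3965. When DSHN was added to GW3965 these shares were 28.3% and 29.5% (23.8% and 23.5% with the length correction). Gclm (chr3:122039206-122060864, plus strand), whose promoter stretch is shown above, gave one of the clearest DSHN responses. Its level was 231, 226, 225, 237 and 239 CPM in DMSO and 215, 222, 229, 243 and 238 CPM with GW3965, which overlapped. With DSHN it was 348, 347, 329, 319.9 and 324 CPM and in the combination 338, 355, 345, 369 and 347 CPM. All 10 libraries that received DSHN stood above all 10 that did not. The DSHN effect was 1.44-fold without GW3965 (log2 0.53, SE 0.036, adjusted p = 3.7e-11) and 1.53-fold with it (log2 0.61, SE 0.036, adjusted p = 1.56e-12, 0.47 with the length correction), and the difference between them did not pass the test (0.083, 95% interval −0.022 to 0.19), though it did with total counts as scaling (adjusted p = 0.0266).

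The catalytic partner Gclc barely moved. Its mean was 79.8 ± 3.08 CPM in DMSO, 81.7 ± 2.42 with DSHN, 73.0 ± 6.38 with GW3965 and 84.5 ± 5.35 in the combination. DSHN alone gave 0.036 (95% interval −0.066 to 0.14), and the combination exceeded GW3965 by 0.21 (SE 0.050, adjusted p = 0.00086), or 0.23 with the length correction. The decrease with GW3965, −0.13 (SE 0.050, adjusted p = 0.0414), was lost without any 1 of DMSO replicates 4 and 5 and GW3965 replicates 1, 2 and 3 (adjusted p of 0.0573 to 0.106). Gss, which completes glutathione, was scarce at 8.42 ± 0.802 CPM in DMSO against 11.9 ± 0.250 in the combination, and 51.8% of its exon bases overlap an antisense gene, so its counts are uncertain. Its rise with GW3965 (0.19, SE 0.069, adjusted p = 0.0261) was lost without any 1 of DMSO replicates 1, 2 and 5 or GW3965 replicates 1, 2 and 5 (adjusted p of 0.0546 to 0.109), with total counts as scaling (0.122), with DESeq2 (0.0528) and without the filter (0.0968).

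Gsr (chr8:34143266-34188190, plus strand), which returns oxidised glutathione to its reduced form, followed Gclm at a smaller size. It was at 166, 151, 155, 168 and 169 CPM in DMSO, 217, 215, 202, 198 and 193 CPM with DSHN, 139.6, 151, 156, 165 and 151 CPM with GW3965 and 200.1, 201, 206, 213 and 215 CPM with both. The 10 libraries with DSHN again lay above the 10 without. DSHN raised it by 0.34 (SE 0.043, adjusted p = 1.24e-06) without GW3965 and by 0.44 (SE 0.043, adjusted p = 3.54e-09) with it, on the log2 scale, and 0.37 with the length correction. GW3965 alone gave −0.086 (adjusted p = 0.105), which passed without DMSO replicate 2 (adjusted p = 0.0378) or GW3965 replicate 4 (adjusted p = 0.0221), and with total counts as scaling (−0.14, adjusted p = 0.0188).

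Slc7a11 (chr3:50319385-50403947, minus strand), the cystine/glutamate exchanger that feeds glutathione synthesis, fell with GW3965 whether or not DSHN was present. It was low throughout, at 14.1, 10.2, 13.0, 13.2 and 15.0 CPM in DMSO and 11.6, 13.3, 15.0, 16.3 and 17.1 CPM with DSHN. GW3965 libraries held 8.31, 8.99, 7.67, 8.11 and 6.66 CPM and combination libraries 7.36, 6.90, 6.66, 7.44 and 7.54 CPM. Every library with GW3965 was below every library without it. GW3965 lowered it to 0.607 of DMSO (log2 −0.72, SE 0.10, adjusted p = 2.91e-06), and the combination was at 0.492 of DSHN alone (log2 −1.02, SE 0.11, adjusted p = 8.28e-09, −0.78 with the length correction). DSHN changed it neither alone (0.16, 95% interval −0.041 to 0.36) nor beside GW3965 (−0.15, −0.38 to 0.092) by an amount that passed the test, and the latter value was 0.11 with the length correction (adjusted p = 0.451).

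Glrx (chr13:75988004-75998270, plus strand), the cytosolic glutaredoxin that removes glutathione from protein cysteines, went the other way from most of the 35 genes. In DMSO it was at 108, 88.4, 99.5, 118 and 128 CPM. With DSHN it was at 64.9, 62.0, 59.0, 58.0 and 62.2 CPM, with GW3965 at 43.9, 46.4, 49.0, 57.2 and 55.7 CPM and with both at 59.3, 59.6, 62.2, 67.9 and 59.8 CPM. No treated library reached the lowest DMSO value, and the combination stood within the range of DSHN apart from 1 library. Its log2 fold change against DMSO was −0.82 (SE 0.076, adjusted p = 7.86e-09) for DSHN, −1.10 (SE 0.077, adjusted p = 8.15e-12) for GW3965, the largest decrease of the 35 genes in either comparison, and −0.81 (SE 0.076, adjusted p = 6.69e-10) for both, or −1.09 with the length correction. The DSHN effect beside GW3965 had the opposite sign from that without it, 0.29 (SE 0.079, adjusted p = 0.00279), but only 0.043 with the length correction (adjusted p = 0.662).

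**Figure D2:**
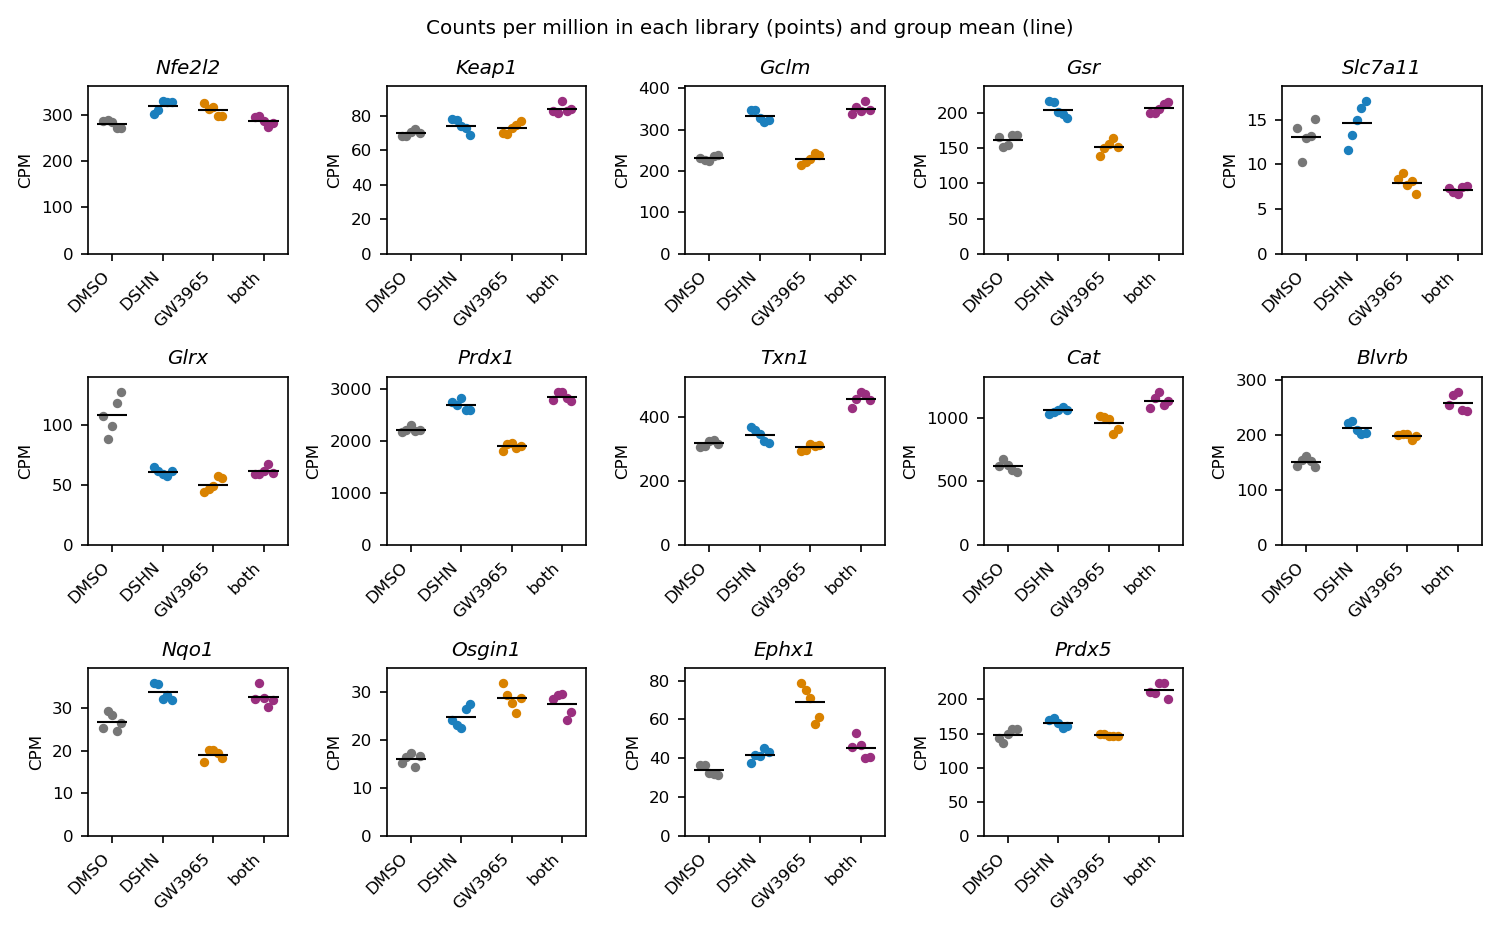
CPM on a linear axis starting at 0 for the 14 genes described library by library, with 1 point per library (5 per group) and a line at the group mean. For Gclm and Gsr the 2 groups with DSHN stand above the 2 without, for Slc7a11 the 2 groups with GW3965 stand below the others, and for Glrx all 3 treated groups stand below DMSO.

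Of the 6 thioredoxin and peroxiredoxin genes, DSHN raised 5, GW3965 raised 1 and lowered 3, and DSHN added to GW3965 raised all 6, with and without the length correction. Among all tested genes DSHN raised 14.1%, and GW3965 raised 23.6% and lowered 23%. DSHN added to GW3965 raised 28.3% of them, or 23.8% with the length correction. Prdx1 (chr4:116542796-116557197, plus strand), an abundant peroxide scavenger, was at 2171, 2203, 2296, 2183 and 2197 CPM in DMSO and 2747, 2683, 2812, 2595 and 2578 CPM with DSHN. It dropped to 1809, 1925, 1955, 1864 and 1895 CPM with GW3965 and stood at 2771, 2928, 2926, 2827 and 2762 CPM with both. The GW3965 libraries were the 5 lowest, and the DSHN and combination libraries were the 10 highest. Log2 fold changes were 0.28 (SE 0.032, adjusted p = 2.56e-07) for DSHN, −0.23 (SE 0.032, adjusted p = 1.83e-06) for GW3965 and 0.59 (SE 0.032, adjusted p = 4.16e-13) for the combination against GW3965, the last reduced to 0.36 by the length correction. Between the combination and DSHN alone the sign depended on that correction, 0.084 without it and −0.15 with it, and the uncorrected call was lost without DSHN replicate 4 (adjusted p = 0.0527) or 5 (adjusted p = 0.053).

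Txn1 (chr4:57943373-57956411, minus strand), thioredoxin itself, was raised mainly by the combination. Its levels were 308, 309, 327, 330.1 and 317 CPM in DMSO, 369.8, 359.7, 349, 324 and 318 CPM with DSHN, 293, 297, 316, 310.5 and 312 CPM with GW3965 and 428, 456, 478, 473 and 454 CPM with both. All 5 combination libraries exceeded the other 15, and DSHN overlapped with DMSO. The combination was above GW3965 by 0.58 (SE 0.040, adjusted p = 1.09e-11), or 0.29 with the length correction, and above DSHN by 0.41, or 0.11. DSHN alone gave 0.11 (SE 0.040, adjusted p = 0.0323), a call lost without any 1 of DMSO replicates 1, 2 and 5 or DSHN replicates 1, 2 and 3 (adjusted p of 0.0629 to 0.127) and with total counts as scaling (0.111). GW3965 alone gave −0.058 (adjusted p = 0.245), which was called lower with the length correction (−0.10, adjusted p = 0.00232) and with total counts as scaling (adjusted p = 0.0361). Prdx5 (chr19:6884065-6887474, minus strand), a peroxiredoxin of mitochondria, peroxisomes and cytosol, was alike in shape. It was at 143, 136, 149, 156 and 157 CPM in DMSO, 169, 173, 166, 158 and 162 CPM with DSHN, 149.7, 149, 146, 146 and 147 CPM with GW3965 and 211, 210.0, 224, 224 and 200.1 CPM in the combination. The combination libraries were again the 5 highest, 0.54 above GW3965 (0.28 with the length correction), and 32.2% of the exon bases of Prdx5 overlap Trmt112 on the other strand, so its counts are uncertain.

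Of the other 3 genes of the role, GW3965 raised Prdx6 and lowered Srxn1 and Txnrd1. Prdx6, a peroxiredoxin that also repairs phospholipids, rose from 104 ± 2.84 CPM to 127 ± 5.84 with DSHN (0.30, SE 0.035, adjusted p = 4.31e-07) and was at 111 ± 4.05 with GW3965 and 148 ± 3.54 in the combination. Its small rise with GW3965 (0.10) was lost without DMSO replicate 2 or without GW3965 replicate 2, 4 or 5 (adjusted p of 0.0608 to 0.0974), and with total counts as scaling (0.378) or no filter (0.0686). Srxn1, which revives over-oxidised peroxiredoxins, was at 179 ± 7.198 CPM in DMSO, 201 ± 7.02 with DSHN, 142 ± 9.36 with GW3965 and 190.3 ± 4.15 in the combination. It fell with GW3965, at −0.33 (SE 0.039, adjusted p = 1.34e-07), and was higher in the combination than in GW3965 by 0.42 (SE 0.039, adjusted p = 1.85e-09), the same size with the length correction (0.42). Txnrd1, the reductase that recharges thioredoxin and carries the core in its window, was at 439 ± 28.5 CPM in DMSO and did not pass the test with DSHN (0.058, 95% interval −0.054 to 0.17). It was lower with GW3965 (−0.20, SE 0.055, adjusted p = 0.00338). Its increase in the combination over GW3965, 0.14 (SE 0.055, adjusted p = 0.0285), was lost without combination replicate 4 or GW3965 replicate 1, 2 or 3 (adjusted p of 0.0552 to 0.0828) and stood at 0.19 with the length correction (adjusted p = 0.00528).

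Of the 5 enzymes that act directly on superoxide and peroxide, catalase rose the most with either compound. Cat (chr2:103284249-103315498, minus strand), the peroxisomal enzyme that splits hydrogen peroxide, was at 622, 678, 629.5, 589 and 575 CPM in DMSO. It reached 1031, 1048, 1059, 1086 and 1065 CPM with DSHN, 1011, 1003, 992, 869 and 908 CPM with GW3965 and 1078, 1159, 1201, 1098 and 1133 CPM with both. Every treated library lay above every DMSO library, and the DSHN and combination groups overlapped each other. DSHN raised it 1.71-fold (log2 0.77, SE 0.044, adjusted p = 1.44e-12), the largest increase of the 35 genes, and GW3965 1.55-fold (log2 0.63, SE 0.044, adjusted p = 9.74e-12). Adding DSHN to GW3965 gave a smaller rise of 0.25 (SE 0.044, adjusted p = 3.32e-05), or 0.16 with the length correction.

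Gpx1 and Gpx4, selenium-dependent glutathione peroxidases, moved apart. Gpx1 was at 395 ± 24.7 CPM in DMSO and 324 ± 26.4 with DSHN, lower at −0.28 (SE 0.048, adjusted p = 7.15e-05), with no overlap between the groups. With GW3965 it was at 353 ± 11.3 CPM (−0.16, SE 0.048, adjusted p = 0.00772). In the combination it was at 425 ± 20.6 CPM, 0.27 above GW3965 on the log2 scale, but −0.025 with the length correction (adjusted p = 0.597). Gpx4, which reduces lipid hydroperoxides in membranes, rose from 121 ± 5.34 CPM to 146 ± 10.03 with DSHN, 149 ± 4.88 with GW3965 and 188 ± 8.22 in the combination, and a related pseudogene, Gpx4-ps2, is counted separately in the files. DSHN added 0.27 alone and 0.34 beside GW3965, the latter 0.11 with the length correction (adjusted p = 0.00984). The superoxide dismutases were not called with either compound alone. Cytosolic Sod1 had means of 49.5 ± 1.18, 51.1 ± 1.999 and 51.5 ± 3.74 CPM in DMSO, DSHN and GW3965, and mitochondrial Sod2 79.3 ± 4.91, 83.7 ± 2.81 and 79.1 ± 3.20 CPM. In the combination Sod2 was 0.19 above GW3965 (0.22 with the length correction). Sod1, the shortest of the 35 genes, turned from 0.17 to −0.19 with the correction (adjusted p = 0.00267), and 47.4% of its exon bases overlap Scaf4 on the other strand, so its direction there is uncertain.

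All 5 genes of NADPH supply were higher with either compound alone, by at most 1.23-fold, where 14.1% of all tested genes were called higher with DSHN and 23.6% with GW3965. G6pdx and Pgd carry out the NADPH-forming steps of the oxidative pentose phosphate pathway. G6pdx went from 346 ± 12.1 CPM in DMSO to 392 ± 14.2 with DSHN and 406 ± 15.0 with GW3965, then to 329.9 ± 9.80 with both. It exceeded DMSO by 0.18 (SE 0.034, adjusted p = 0.000229) with DSHN and 0.23 (SE 0.034, adjusted p = 3.22e-06) with GW3965, without overlap, but adding DSHN to GW3965 lowered it, at −0.30 (SE 0.034, adjusted p = 3.44e-08), also without overlap. The length correction made that decrease larger (−0.41). Against DMSO, the combination gave −0.069 for G6pdx (adjusted p = 0.0755). That comparison was called lower with the length correction (−0.18, adjusted p = 0.000236) and with total counts as scaling (0.0498). It was also called lower without DMSO replicate 5 (0.0236) or combination replicate 2 (0.0459). Pgd was at 678 ± 12.0, 771 ± 20.0, 773 ± 15.4 and 829 ± 33.6 CPM in the same order, and its small difference between the combination and GW3965 (0.10) was −0.012 with the correction.

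Taldo1 and Tkt, which rearrange sugars in the non-oxidative part of the pathway, and Me1, cytosolic malic enzyme, followed. DSHN raised Taldo1 by 0.26 (SE 0.034, adjusted p = 1.92e-06), from 532 ± 15.9 to 638 ± 27.5 CPM, and GW3965 by 0.12. Scaling by total counts alone ended the GW3965 call for Taldo1 (adjusted p = 0.156). Tkt was at 421 ± 5.57 CPM in DMSO, 519 ± 15.1 CPM with GW3965 (0.30, SE 0.031, adjusted p = 8.37e-09) and 447 ± 5.00 CPM with DSHN (0.088, SE 0.031, adjusted p = 0.0321). The Tkt call with DSHN was lost without any 1 of DMSO replicates 1, 2, 4 and 5 or DSHN replicates 1, 2, 4 and 5 (adjusted p of 0.05 to 0.0913), with total counts as scaling (0.0697) and without the filter (0.0807). Me1 was scarcer, at 23.4 ± 0.884 CPM in DMSO, 26.5 ± 1.12 with DSHN, 27.9 ± 2.04 with GW3965 and 32.9 ± 1.51 in the combination. Its rise in the combination over GW3965, 0.24, was 0.26 with the length correction, while that of Taldo1, 0.33, was no longer called at 0.071 (adjusted p = 0.0533).

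In haem breakdown, the 2 biliverdin reductases rose with either compound alone, and the first enzyme, haem oxygenase, rose with both together. Hmox1, haem oxygenase, was at 733 ± 112 CPM in DMSO, 712 ± 51.9 with DSHN and 754 ± 63.2 with GW3965, and neither compound alone passed the test (DSHN −0.040, 95% interval −0.20 to 0.12, GW3965 0.042, −0.12 to 0.20). With both it was at 994 ± 79.8 CPM, and its range of 927 to 1132 CPM lay above all 15 other libraries. The rise over GW3965 was 0.40 (SE 0.077, adjusted p = 7.86e-05), or 0.19 with the length correction (adjusted p = 0.0324). Blvra, which turns biliverdin into bilirubin, rose with DSHN by 0.22 (SE 0.035, adjusted p = 2.46e-05) and with GW3965 by 0.19 (SE 0.035, adjusted p = 7.4e-05), from 93.5 ± 3.15 CPM to 109 ± 5.10 and 107 ± 2.79, and reached 135 ± 3.13 with both.

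Blvrb (chr7:27147403-27165406, plus strand), a second biliverdin and flavin reductase, rose further. It was at 144, 155, 161, 152 and 141 CPM in DMSO, 222, 225, 209, 201 and 204 CPM with DSHN, 199.7, 202, 201, 190.4 and 198 CPM with GW3965 and 254, 273, 278, 246 and 244 CPM with both. DMSO libraries were the 5 lowest and combination libraries the 5 highest. DSHN raised it 1.41-fold (log2 0.49, SE 0.043, adjusted p = 3.16e-09) and GW3965 1.32-fold (log2 0.40, SE 0.043, adjusted p = 2.92e-08). Of the further rise with DSHN on GW3965, 0.39, the length correction left 0.084 (adjusted p = 0.0814). Blvrb is among the shorter genes.

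Of the 6 detoxification and export genes, 4 rose and 1 fell with DSHN, 3 rose and 2 fell with GW3965, and 2 rose and 3 fell when DSHN was added to GW3965 (1 and 2 with the length correction). The shares of all tested genes called higher and lower were 14.1% and 14.8% with DSHN and 23.6% and 23% with GW3965. They were 28.3% and 29.5% when DSHN was added to GW3965 (23.8% and 23.5% with the length correction). Nqo1 (chr8:108114856-108139012, minus strand), which reduces quinones and is a standard readout of NRF2, was at 25.4, 29.4, 28.4, 24.5 and 26.4 CPM in DMSO, 35.8, 35.8, 32.2, 33.1 and 32.0 CPM with DSHN, 17.4, 20.1, 20.1, 19.6 and 18.4 CPM with GW3965 and 32.2, 35.8, 32.4, 30.3 and 31.8 CPM with both. GW3965 libraries were the 5 lowest, and the 10 libraries with DSHN were above the 10 without. DSHN raised it by 0.33 (SE 0.056, adjusted p = 6e-05) and GW3965 lowered it, at −0.49 (SE 0.059, adjusted p = 1.78e-07). Beside GW3965, DSHN raised it 1.70-fold (log2 0.76, SE 0.059, adjusted p = 6.39e-11), the largest increase of the 35 genes in that comparison, and 0.76 with the length correction. The combination and DSHN alone differed by −0.057 (95% interval −0.17 to 0.058).

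Ephx1 (chr1:180817121-180845134, minus strand), the microsomal epoxide hydrolase, reached its highest level with GW3965 alone. Its levels were 36.6, 36.3, 32.1, 31.9 and 31.4 CPM in DMSO, 37.4, 41.4, 41.2, 45.4 and 43.3 CPM with DSHN, 78.6, 75.1, 71.2, 57.4 and 61.4 CPM with GW3965 and 45.9, 52.8, 46.7, 40.0 and 40.4 CPM with both. The 5 GW3965 libraries were the highest of the 20, and DSHN and the combination overlapped. GW3965 raised it 2.04-fold (log2 1.03, SE 0.080, adjusted p = 7.35e-11), DSHN 1.24-fold (log2 0.31, SE 0.082, adjusted p = 0.00621), and DSHN beside GW3965 lowered it to 0.658 of GW3965 alone (log2 −0.60, SE 0.079, adjusted p = 3.39e-07, −0.79 with the length correction). Osgin1 (chr8:120160874-120172996, plus strand), a growth inhibitor induced by oxidative stress, rose under every treatment. It was at 15.2, 16.5, 17.2, 14.3 and 16.6 CPM in DMSO, 24.2, 23.2, 22.5, 26.4 and 27.5 CPM with DSHN, 31.9, 29.5, 27.9, 25.8 and 28.9 CPM with GW3965 and 28.6, 29.4, 29.6, 24.3 and 25.8 CPM with both. All 15 treated libraries exceeded all DMSO libraries and overlapped among themselves. Log2 fold changes against DMSO were 0.63 (SE 0.071, adjusted p = 2.46e-07), 0.85 (SE 0.071, adjusted p = 2.45e-10) and 0.79 (SE 0.071, adjusted p = 3.55e-10), and the combination value was 0.67 with the length correction. DSHN beside GW3965 gave −0.060 (95% interval −0.20 to 0.078) and was not called, but with the length correction it was called lower, at −0.17 (adjusted p = 0.0452).

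Cbr1, a carbonyl reductase, rose with DSHN by 0.23 (SE 0.051, adjusted p = 0.001) and with GW3965 by 0.22 (SE 0.051, adjusted p = 0.00103), from 24.5 ± 1.96 CPM to 28.8 ± 1.17 and 28.4 ± 1.24. Its rise in the combination over GW3965, 0.32, was 0.031 with the length correction (adjusted p = 0.59). The export pumps Abcc1 and Abcc4, which carry glutathione conjugates and organic anions out of the cell, were not called higher in any comparison. Abcc1 was at 322 ± 8.88 CPM in DMSO, 318 ± 16.8 with DSHN, 276 ± 10.8 with GW3965 (−0.22, SE 0.038, adjusted p = 1.96e-05) and 239.8 ± 9.82 with both. Abcc4 was lower with DSHN, at −0.12 (SE 0.037, adjusted p = 0.0165), a call that ended with the length correction (adjusted p = 0.0525) and without the filter on low counts (adjusted p = 0.141). Both are long genes, and their decreases in the combination against GW3965, −0.20 and −0.28, became 0.025 and −0.026 with the correction.

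Whether the DSHN effect differed with GW3965 present was tested as an interaction, the log2 change of DSHN with GW3965 minus that without. It was called for 19 of the 35 genes, 11 higher and 8 lower, where 23.7% and 26.5% of tested genes were, 50.2% in all. With the length correction 11 and 12 were called, against 21.5% and 22.6%, 44.2% in all. Of the 19 calls, 16 kept their direction and call under the correction. Of the 6 thioredoxin and peroxiredoxin genes, 4 had a larger DSHN effect beside GW3965, with interaction values of 0.47 for Txn1, 0.38 for Prdx5, 0.31 for Prdx1 and 0.25 for Srxn1, or 0.21, 0.15, 0.10 and 0.24 corrected. Prdx6 (0.11, adjusted p = 0.0602) and Txnrd1 (0.084, adjusted p = 0.384) did not pass, though Prdx6 passed with total counts as scaling (0.00656) and without any 1 of 8 single libraries (DMSO replicate 2, DSHN replicates 1 and 2, combination replicates 1 and 5, GW3965 replicates 2, 4 and 5, adjusted p of 0.0105 to 0.0492). Nqo1 (0.43, SE 0.081, adjusted p = 8.7e-05, 0.42 corrected), Hmox1 (0.44, 0.25 corrected) and Mafg (0.30, 0.54 corrected) also had a larger effect. For Glrx the value was 1.11 (SE 0.11, adjusted p = 1.37e-08) and for Gpx1 0.55 (SE 0.068, adjusted p = 3.53e-07). DSHN lowered both genes when alone, and beside GW3965 their values were above 0 only before the length correction for Gpx1 and not called after it for Glrx.

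For 8 genes the DSHN effect beside GW3965 was smaller or more negative than without it. Interaction values were −0.91 (SE 0.11, adjusted p = 4.1e-07) for Ephx1, −0.69 for Osgin1, −0.53 for Cat, −0.48 for G6pdx, −0.32 for Sqstm1 and −0.30 for Nfe2l2. With the length correction these 6 kept their sign and call, at −1.08, −0.80, −0.61, −0.58, −0.19 and −0.28. Calls for Blvra, Abcc1 and Abcc4 ended with it. The correction also made new calls, above 0 for Keap1 (0.18, adjusted p = 0.0142). Below 0 these were Blvrb (−0.37, adjusted p = 8.17e-06), Pgd (−0.20, adjusted p = 0.000487), Taldo1 (−0.161), Sod1 (−0.185), Gpx4 (−0.14) and Cbr1 (−0.165). Single libraries ended 3 calls: Gclc without DMSO replicate 5, DSHN replicate 3 or 4, combination replicate 4 or 5 or GW3965 replicate 1, 2 or 3 (adjusted p of 0.0526 to 0.0782), Blvra without DMSO replicate 3, DSHN replicate 4 or 5 or GW3965 replicate 2 (0.0526 to 0.083), and Abcc4 without combination replicate 3 or 5 or GW3965 replicate 1 (0.0527 to 0.0574).

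**Figure D3:**
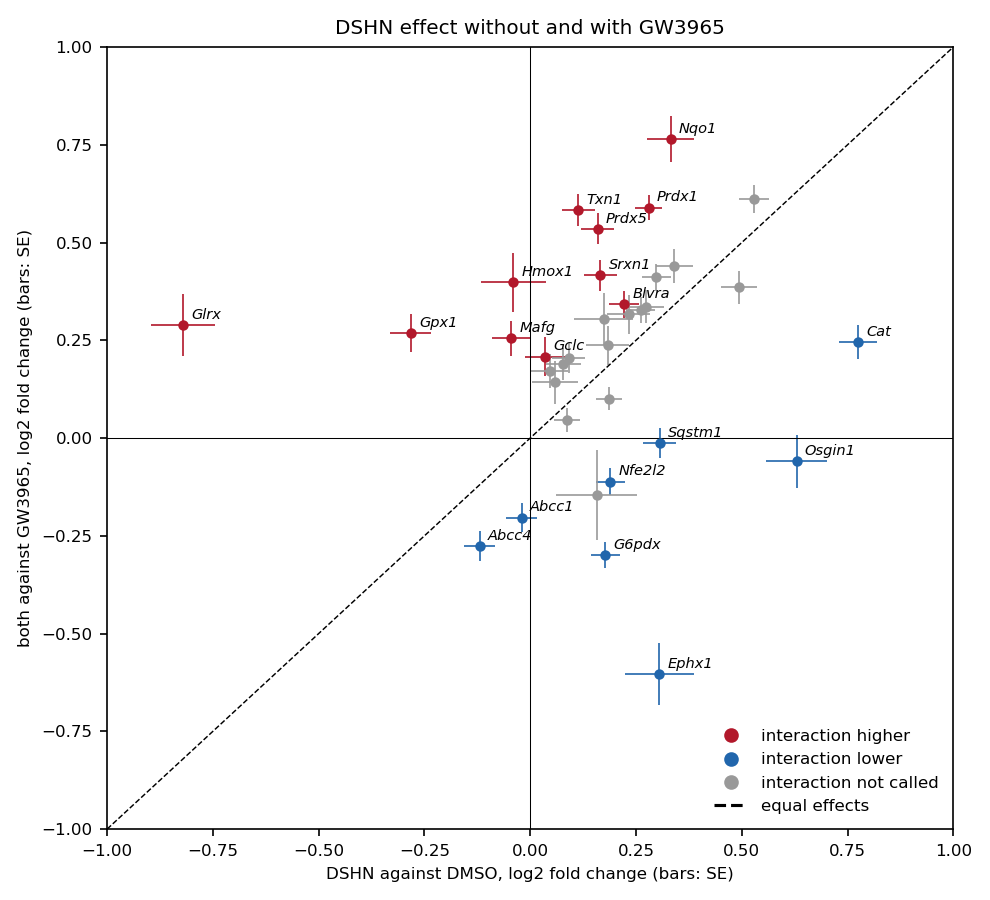
Log2 fold change of DSHN against DMSO (horizontal) and of both compounds against GW3965 (vertical) for the 35 genes, as estimate and standard error, with the dashed line marking equal effects. Red points, such as Nqo1, Txn1 and Glrx, are called above the line (11 genes), blue points, such as Ephx1, Osgin1, Cat and G6pdx, below it (8 genes), and grey points did not pass the interaction test.

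The length trend of the combination libraries touched these genes unevenly. Of the 31 calls between the combination and GW3965, 20 kept their direction and call with the correction, 18 higher and 2 lower. The 18 included all 6 thioredoxin and peroxiredoxin genes, and the 2 were Ephx1 and G6pdx. For DSHN against DMSO, 24 of 25 calls were kept, and for GW3965 against DMSO 24 of 25. How many calls were kept among all tested genes is not given, so these counts have no comparator. As a different measure, the corrected fit called 29.8% of tested genes with DSHN, 47.8% with GW3965 and 47.3% for the combination against GW3965. What produced the trend, and its part in the combination's values beyond this correction, was not tested.

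**Figure D4:**
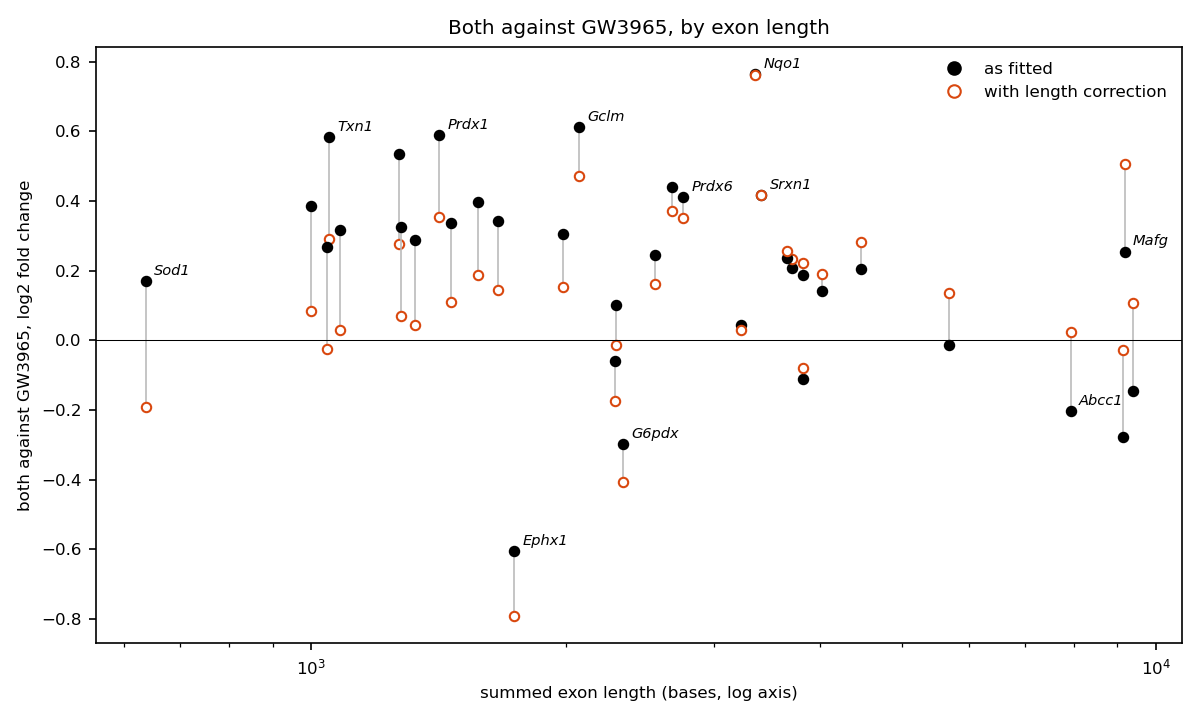
Log2 fold change of both compounds against GW3965 for each of the 35 genes by summed exon length on a log axis, as fitted (filled) and with the per-library length correction (open), joined by a line. Short genes such as Txn1 and Sod1 move down and long genes such as Mafg and Abcc1 move up with the correction, while Nqo1 and Srxn1, of middle length, keep their values of 0.76 and 0.42.

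The rest of the pathway, from lists of genes outside the 35, is described by counts to be read against the 14.1% of all tested genes called higher and 14.8% called lower with DSHN, and the 28.3% and 29.5% called when DSHN was added to GW3965 (23.8% and 23.5% with the length correction). Of 17 tested other NRF2 targets, 8 were higher and 1 lower with DSHN, among them the reductases Ptgr1 (0.32, adjusted p = 4.82e-06) and Cbr3 (0.39, adjusted p = 4.68e-05) and Htatip2 (0.23, adjusted p = 5.67e-05). Beside GW3965, 10 were higher and 5 lower (8 and 4 with the length correction), with Esd, an esterase, at 0.59 and Ptgr1 at 0.48 and with the export pump Abcc3 lower, at −0.61 (adjusted p = 3.49e-10). Of 22 other thioredoxin, peroxidase and repair genes, 5 were higher and none lower with DSHN, led by Msrb1, a methionine sulfoxide reductase (0.38, adjusted p = 2.37e-07), secreted Gpx3 (0.51) and extracellular Sod3, a scarce transcript of 2.81 CPM in DMSO (0.63). With DSHN on GW3965, 12 rose and 1 fell (9 and 1 corrected), including the glutaredoxins Glrx5 (0.58) and Glrx3 (0.34) and again Msrb1 (0.37).

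Of 20 other glutathione and NADPH genes, 3 were higher, 4 lower and the rest not called with DSHN, shares near those of all tested genes. Idh1, a cytosolic NADPH source, rose from a mean of 248 to 353 CPM (0.51, adjusted p = 4.37e-08) and Nnt, which makes NADPH in mitochondria, by 0.21, while Mthfd1 of folate metabolism was lower (−0.27). Beside GW3965, 8 were higher and 7 lower (4 and 4 corrected), with DSHN lowering Idh1 (−0.31), Nnt (−0.39) and hexokinase Hk1 (−0.23). Of 13 tested regulators of NRF2, 3 were higher with DSHN, the sestrin Sesn1 (0.26) and the repressor Bach1 (0.18) among them, and 1 lower, the small MAF gene Maff (−0.47). Beside GW3965, 3 were higher, with the ligase subunit Rbx1 at 0.46, and 8 lower (3 and 5 corrected), with the kinase Gsk3b at −0.44, or −0.20 corrected, and Sesn2 at −0.42.

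The last lists hold haem handling genes and genes whose proteins make oxidants. Of 8 haem handling genes, 5 were higher and 1 lower with DSHN, among them the haem importer Slc48a1 (0.26, adjusted p = 3.69e-07), the exporter Flvcr1 (0.17) and ferrochelatase, Fech (0.14). With DSHN on GW3965, 2 were higher, Slc48a1 (0.36) and Ppox (0.21, not called with the length correction), and Fech was lower (−0.23). Of 7 tested oxidant producers, 2 were higher and 1 lower with DSHN, among them the NADPH oxidase subunits Cyba (0.15) and Ncf4 (−0.14). Beside GW3965, 3 were higher and 2 lower (1 and 2 with the length correction). The 2 lower were Cybb, the catalytic subunit of the phagocyte oxidase (−0.52, adjusted p = 1.82e-07), and xanthine dehydrogenase, Xdh (−0.60, adjusted p = 2.34e-08). Their length-corrected values were −0.42 and −0.43. Cyba, at 0.31 in the same comparison, was at −0.029 with the correction.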

How the data were processed

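Each library has a deposited file of unnormalized read counts by gene, made with featureCounts 2.0.0 on GRCm39 with RefSeq annotation, per the file headers, which give no strand or multi-mapping option, so opposite-strand overlaps are uncertain. No count was changed. Genes were kept by filterByExpr (13307 of 46318) and tested by quasi-likelihood in edgeR 4.0.16 (R 4.3.3), with TMM scaling and 1 mean per treatment over all 20 libraries. In each of 6 contrasts the Benjamini-Hochberg adjustment ran over all tested genes, with calls under 0.05. CPM use TMM factors, and RPKM are CPM per kilobase of exon. The biological coefficient of variation was 0.0536.

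The 35 genes, the gene lists and the tests were chosen with earlier results of these data known. Values in every library are given for Nfe2l2, Keap1 and the 6 called genes of at least 5 mean CPM with the largest change in DSHN against DMSO, in GW3965 against DMSO and in the combination against GW3965. From each list, up to 3 called genes with the smallest adjusted p are named in DSHN against DMSO and in the combination against GW3965. These genes also had a mean of at least 5 CPM in any group, not necessarily a compared one.

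Alternatives were DESeq2 1.42.0 as a test and as size factors, total counts as scaling, no filter, a replicate block, a per-library spline of 5 degrees of freedom on log2 exon length (alone and with the block), and leaving out each library. When counts were simulated for DSHN against DMSO (13093 genes), 36 of 50 genes changed 1.25-fold, 40 of 47 changed 1.5-fold and 47 of 50 changed 2-fold were recovered, and 6 of 12899 unchanged genes were called. With a simulated length trend for the combination against GW3965 (13094 genes), the uncorrected fit called 4147 of 12897 unchanged genes and the corrected fit 13. The uncorrected and corrected fits recovered 47 and 43 of 48 genes changed 1.5-fold, and 46 and 43 of 50 changed 2-fold. The simulated trend was a straight line in log2 exon length, which the spline removes by construction. This simulation therefore cannot show what the real trend is or which fit is nearer to the cells' RNA. Promoter sequences are from RefSeq on GRCm38.p6, and no coordinate was converted between builds.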

Additional observations from a re-analysis of the deposited data

Results flagged for a closer look

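A library far from the other 4 of its group was found in 7 of 140 gene and group combinations checked, about the 1 in 20 that chance gives. They were Hmox1 in combination replicate 4 (1132 CPM), Prdx1 in DMSO replicate 3 (2296 CPM), Srxn1 in DSHN replicate 1 (212.8 CPM), G6pdx in GW3965 replicate 1 (432.0 CPM), Sod2 in DMSO replicate 2 (70.68 CPM), Cbr1 in DMSO replicate 3 (27.96 CPM) and Mafg in GW3965 replicate 4 (118.2 CPM).

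The log2 effect of DSHN with GW3965 minus that without passed the interaction test for 19 of the 35 genes. Of all tested genes 50.2% passed it, 23.7% above 0 and 26.5% below. It was above 0 for Glrx (1.11), Gpx1 (0.5516), Txn1 (0.4692), Hmox1 (0.4378), Nqo1 (0.4325), Prdx5 (0.376), Prdx1 (0.3095), Mafg (0.3011), Srxn1 (0.2507), Gclc (0.1723) and Blvra (0.12). It was below 0 for Ephx1 (−0.9096), Osgin1 (−0.6893), Cat (−0.5287), G6pdx (−0.4767), Sqstm1 (−0.3179), Nfe2l2 (−0.3007), Abcc1 (−0.1829) and Abcc4 (−0.157).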

How the results depend on the processing

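Over 6 contrasts, DESeq2 size factors, the DESeq2 test, total counts and no filter turned no call's direction. Total counts alone gave 18 genes with a larger DSHN effect beside GW3965, against 11. With that scaling the median interaction over all tested genes was 0.08, against 0.00546 in the main fit, so the centre of all genes moved as well. The length correction gave 8 genes lower in the combination than in DSHN, against 5. With the replicate block and the length correction these counts were 13 higher, against 20, and 8 lower. The cause of these shifts was not tested.

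Leaving out 1 library gave 20 to 23 genes higher and 3 to 3 lower for DSHN against DMSO, 14 to 16 and 8 to 11 for GW3965 against DMSO, 25 to 26 and 4 to 5 for the combination against DMSO, 25 to 27 and 5 to 5 against GW3965, 19 to 21 and 5 to 6 against DSHN, and 9 to 14 and 7 to 9 for the interaction. No direction of a call turned in these fits.

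Replicate numbers were shared across groups. Same-numbered libraries deviated together (r over 0.1) in 10 of 30 pairs, with a best match to the own number in 12 of 30. The pairs were not alike. Among DMSO, GW3965 and the combination every r was above 0 (0.0268 to 0.247), and most of the own-number matches were there. In pairs with DSHN, r was −0.205 to 0.147. The main fit treated all libraries as unpaired, so a replicate effect shared by the groups other than DSHN is not modelled in it. With the replicate block, 22 genes were higher and 3 lower for DSHN against DMSO, as without it, and over all contrasts 3 calls were gained and 1 was lost.

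Signs that turned with the length correction, and again with the block added, follow where at least 1 of the fits made a call. Other signs turned where none did, such as Slc7a11 in the combination against GW3965 (0.107 with the correction). For the combination against DMSO they were Sod1 (−0.211, −0.212) and Gpx1 (−0.228, −0.229). Against GW3965 they were Pgd (−0.0122 in both), Sod1 (−0.192, −0.191), Gpx1 (−0.025, −0.0255), Abcc1 (0.0251, 0.0253) and Sqstm1 (0.136 in both). Against DSHN they were Prdx1 (−0.151, −0.152), Pgd (−0.00667, −0.00655), Taldo1 (−0.0758, −0.076), Blvrb (−0.022, −0.0232), Sod1 (−0.204 in both), Abcc4 (0.0803, 0.0796) and Glrx (−0.238, −0.24). In the interaction they were Taldo1 (−0.161 in both), Blvra (−0.0584, −0.0587), Sod1 (−0.185, −0.184), Gpx4 (−0.14 in both), Abcc1 (0.0314, 0.0318), Abcc4 (0.0796, 0.0792) and Cbr1 (−0.165 in both). Which fit is nearer to the cells' RNA was not tested.

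Depth limits Slc7a11 and Gss most, the scarcest of the 35 genes per exon length.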
